A study of Schizosaccharomyces pombe with 6 samples.

Results

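MBF is the transcription factor complex that switches on genes at the passage from G1 into S phase in fission yeast, *Schizosaccharomyces pombe*. The genes described here are 10 genes around it, chosen by their identifiers from the 7001 genes of the deposited RNAseq tables. The 6 MBF targets are *cdc18* (SPBC14C8.07c), *cdt1* (SPBC428.18), *cdt2* (SPAC17H9.19c), *cdc22* (SPAC1F7.05), *cig2* (SPAPB2B4.03) and *mik1* (SPBC660.14). The 4 MBF regulators are *nrm1* (SPBC16A3.07c), *yox1* (SPBC21B10.13c), *rep2* (SPBC2F12.11c) and *cdc10* (SPBC336.12c). All 10 genes were found in both tables, had reads in every library and passed the filter on low values in every comparison.

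RNA was measured in cells of mating type h- after 4 hours in minimal medium without nitrogen at 25 °C, with 2 libraries, labelled as biological replicates, in each of 3 groups. The WT strain was h- 972. The second strain, h- *igo1*::*kanMX6*, was labelled as mutant in *igo1*, the gene of Endosulfine, an inhibitor of the phosphatase PP2A/B55, and its genotype label reads *igo1* knockdown. The third strain, h- *nmt41*-*GST*-*pab1*-*KanMx6 igo1*::*natMx6*, carried an *igo1* disruption as well, with *pab1*, the gene of the B55 subunit, driven by the thiamine-repressible *nmt41* promoter. The growth and washing protocols name thiamine for all strains, and all libraries of a group came from 1 strain.

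Depth was similar between libraries, the lowest total being 14791399 and the highest 18809513 reads. The gene used to check the labels did not follow them. Reads on *igo1* numbered 1876 and 2098 in WT, and they still numbered 1693 and 1478 under the *igo1*Δ label, so the second pair is called by its label throughout. The *igo1* gene had 2307 and 5035 reads in the *pab1*-repressed libraries, and whether the counted reads lie outside the disrupted part was not tested. The thiamine-repressed gene *nmt1* had 66 and 49 reads in the *pab1*-repressed libraries and at least 146558 in every other library, so thiamine and *pab1* repression cannot be told apart here. The *pab1* gene itself had 2296 and 1078 reads in those libraries against 2853 and 3027 in WT, a log2 difference of -1.15 ± 0.32 (SE; limma adjusted p = 0.226). It had 2182 and 1819 reads in the *igo1*Δ-labelled libraries, which were lower than WT (-0.46 ± 0.08, edgeR adjusted p = 0.00135), and the *pab1*-repressed libraries differed from these by -0.73 ± 0.33 (limma adjusted p = 0.199). The M mating type markers fitted the h- label in WT, with a summed level of 24504 to 26673 normalised reads. They summed to 1696 and 1963 in the *igo1*Δ-labelled libraries, where *mfm1*, an M-factor pheromone gene, had 8 reads in each. The P markers, which include *map2* and *map3* of the opposite mating type, summed to between 1767 and 2705 in all 6 libraries. Most of this sum was *map4*, at 1482 to 2091 normalised reads, while *map2* had 29.9 to 84.6. The *map1* level was 260 and 272 in WT and 35.9 and 24.4 in the *igo1*Δ-labelled libraries. None of the 6 M markers and 4 P markers was at 0 in any library.

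MBF contains Cdc10 together with the DNA-binding proteins Res1 and Res2, and it binds the MluI cell cycle box (MCB), whose core letters are ACGCG. Rep2 is a coactivator of the complex, while Nrm1 and Yox1 are corepressors that bind it and switch its targets off after S phase has begun. The *nrm1*, *yox1* and *cig2* genes are also known as targets of MBF, which closes negative feedback loops. In nitrogen-free medium fission yeast cells divide and arrest in G1, from which they mate or enter quiescence. In bulk RNA, fewer cells of a type or cell cycle stage and less RNA per cell cannot be told apart.

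The sequences shown are the 140 bases before the annotated transcript start of the 7 genes whose windows held MCB cores. They are shown because 6 of these 7 genes were among the 7 that were most reduced in the *igo1*Δ-labelled libraries. Positions count from 0 at the first transcribed base, so the last base shown is -1. Capitals mark every ACGCG on the strand of the gene, or on the other strand, where it reads CGCGT. Sequences and positions are those of RefSeq's ASM294v3 assembly, matched by gene identifier. The deposited tables carry no coordinates.
cdc18: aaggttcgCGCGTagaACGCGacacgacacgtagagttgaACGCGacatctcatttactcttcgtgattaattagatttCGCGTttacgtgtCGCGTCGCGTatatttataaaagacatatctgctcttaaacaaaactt
cdt1: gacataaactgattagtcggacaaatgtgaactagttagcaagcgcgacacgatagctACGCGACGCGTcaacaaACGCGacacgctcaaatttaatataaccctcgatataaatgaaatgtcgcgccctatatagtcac
cdt2: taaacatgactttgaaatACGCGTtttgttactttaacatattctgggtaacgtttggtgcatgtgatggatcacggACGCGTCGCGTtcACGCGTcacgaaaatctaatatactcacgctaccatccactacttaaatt
cdc22: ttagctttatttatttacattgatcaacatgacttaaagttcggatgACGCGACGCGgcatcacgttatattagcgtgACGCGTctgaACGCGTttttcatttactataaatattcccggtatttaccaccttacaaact
cig2: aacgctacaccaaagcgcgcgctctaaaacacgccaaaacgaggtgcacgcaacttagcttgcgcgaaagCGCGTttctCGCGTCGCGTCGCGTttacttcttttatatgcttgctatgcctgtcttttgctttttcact
nrm1: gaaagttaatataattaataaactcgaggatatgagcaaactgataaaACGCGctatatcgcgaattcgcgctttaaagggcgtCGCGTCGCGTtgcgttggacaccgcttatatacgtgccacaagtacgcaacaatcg
yox1: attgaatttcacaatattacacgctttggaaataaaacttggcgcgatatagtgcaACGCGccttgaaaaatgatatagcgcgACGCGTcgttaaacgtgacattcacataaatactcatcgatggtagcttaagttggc

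On ASM294v3 these windows lie at II:2217985-2218124 on the minus strand for *cdc18*, II:477252-477391 on the plus strand for *cdt1*, and I:2035705-2035844 on the minus strand for *cdt2*. Those of *cdc22*, *cig2*, *nrm1* and *yox1* lie on the plus strand at I:4226830-4226969, I:2709642-2709781, II:4285804-4285943 and II:1648092-1648231. Within the 250 bases before the start, cores were counted on both strands, so that a palindromic ACGCGT counts as 2 cores. The *cdt2* window held 7, *cdc18* and *cdc22* held 6 each, *cig2* held 5, *cdt1* held 4, and *nrm1* and *yox1* held 3 each. In *cdc18*, the gene of the replication licensing factor Cdc18, they lay between positions -132 and -43. In *cdt1*, whose product loads the replicative helicase with Cdc18, they lay between -82 and -65. In *cig2* a run of adjoining CGCGT repeats begins at -61, with further copies at -56 and -51. Of the promoters of 5112 coding genes, 0.998% held at least 3 cores in such a window, as did 7 of the 10 MBF genes. With the window cut to 100 bases, the shares were 0.489% of promoters and again 7 of the 10 genes. The full palindrome ACGCGT stood in 4 of the 10 windows, those of *cdt1*, *cdt2*, *cdc22* and *yox1*, and in 2.64% of all promoters. ACGCGNA, a longer form in which N is any base, stood in 3 of the 10 and in 3.27% of all promoters, and overlaps the core.

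The *mik1*, *rep2* and *cdc10* windows held no core. In *mik1*, 9 cores lay instead between positions 19 and 86, within the annotated transcript, and a stretch of it from 43 to 67 (II:221341-221365, plus strand) holds 5 of them:
mik1: aACGCGaACGCGTcatgACGCGTcg

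The annotated 5′ end of *mik1* overlaps that of the divergent gene *ssb1* by 1 base, so the same cores lie upstream of *ssb1*, whose own window held 9. In *cdc10* an ACGCGT lay farther away, at -407. A match is a description of letters and was not tested as a binding site.

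**Figure D1:**
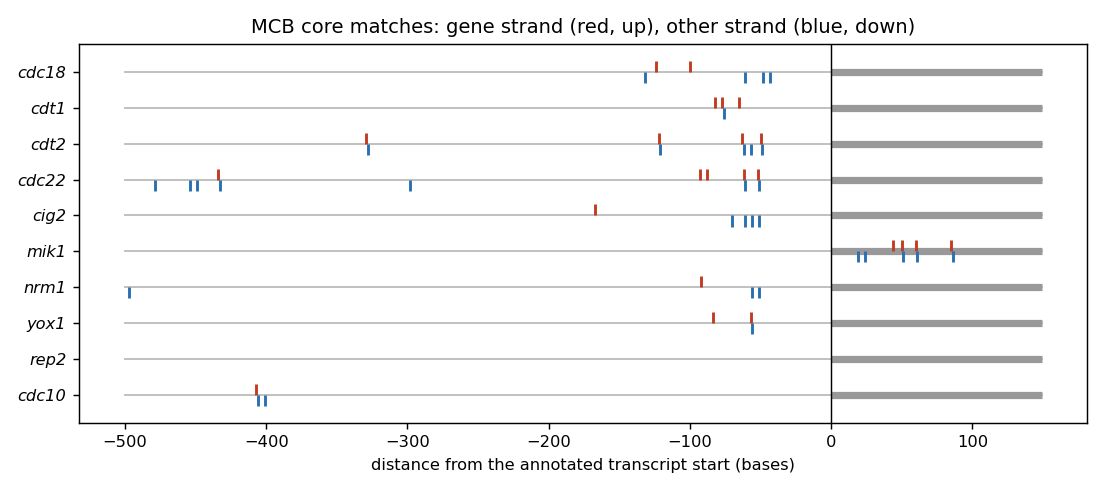
Matches to the MCB core near the annotated transcript start of each of the 10 genes. The x axis gives the distance from the start in bases, thick grey bars mark transcribed sequence, and ticks mark matches on the gene's strand (red) or the other strand (blue); 7 genes carry 3 or more ticks within 250 bases before the start, *mik1* carries its 9 after it, and *rep2* has none.

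Among these genes the level per transcript length differed widely in WT. Given as TMM-normalised reads per kilobase of annotated exon, divided by depth, *cdc22*, the large subunit of ribonucleotide reductase, stood highest at 295. The licensing gene *cdc18* followed at 62.8, and *cdt2*, the substrate adaptor of the Cul4 ubiquitin ligase, at 53.0. The kinase gene *mik1*, whose product holds Cdc2 inactive, was lowest at 5.53. The remaining 6 genes lay between 20.8 (*rep2*) and 36.2 (*cdt1*). In the *igo1*Δ-labelled libraries this order changed. The highest values were 43.1 for *cdc22*, 33.8 for *rep2*, 23.8 for *nrm1* and 17.7 for *cdc10*, and every other gene was at or below 6.06. The regulator *rep2* thus exceeded 5 of the 6 targets there.

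The first comparison sets the libraries labelled as *igo1* mutant against WT, both starved of nitrogen. All 6 targets were lower in the *igo1*Δ-labelled libraries than in WT, with WT means 4.24 to 15.9 times as high, and of the regulators *yox1* was reduced in the same way. The changes of *nrm1*, *cdc10* and *rep2* were small by comparison, and *rep2* was higher. Levels below are reads scaled with TMM over all 6 libraries. For *cdc18* they were 2218 and 2109 in WT and 195 and 223 in the *igo1*Δ-labelled libraries, a log2 fold change of -3.38 ± 0.09 (SE; edgeR adjusted p = 4.26e-08). The *cdt1* level was 756 and 899 in WT and 58.8 and 45.4 in the mutant-labelled pair (log2 fold change -3.99 ± 0.17, edgeR adjusted p = 3.75e-07). These were the 2 partners in licensing of replication origins, and for each the groups lay far apart.

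The adaptor gene *cdt2*, whose product directs Spd1 and Cdt1 to destruction, had 1740 and 1746 normalised reads in WT against 109 and 114, a change of -3.98 ± 0.09 (edgeR adjusted p = 3.40e-08). Its mean was thus 6.39% of WT, close to the 6.29% of *cdt1*. For *cdc22*, 13888 and 13204 normalised reads in WT stood against 1931 and 2029 (-2.79 ± 0.08, edgeR adjusted p = 6.89e-08). Even so, *cdc22* remained the most abundant transcript of the 10 per length. The S-phase cyclin gene *cig2* had 1968 and 2018 normalised reads in WT and 275 and 284 in the *igo1*Δ-labelled libraries (-2.84 ± 0.08, edgeR adjusted p = 4.26e-08). The annotated *cig2* transcript overlaps the calcium pump gene *pmc1* on the opposite strand by 1459 bases, and *pmc1* had 19526 and 21642 reads in these libraries against 6911 and 7528 in WT. Whether strand was used in counting is not stated, so part of the *cig2* reads may belong to *pmc1*, whose reads went the other way. The smallest fall among the targets was that of *mik1*, from 283 and 233 normalised reads to 56.6 and 65.1 (-2.09 ± 0.19, edgeR adjusted p = 2.87e-05).

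**Figure D2:**
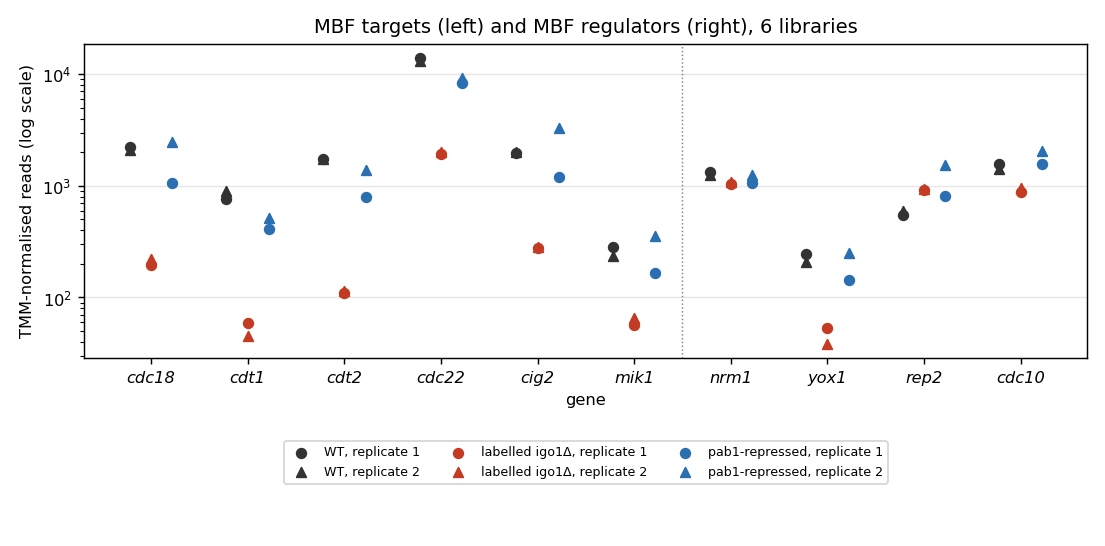
TMM-normalised reads (y axis, log scale) of the 10 genes in each of the 6 libraries, with circles for replicate 1 and triangles for replicate 2. The *igo1*Δ-labelled libraries (red) lie below both other groups for all 6 targets and *yox1*, while for *nrm1* the 3 groups are close together and for *rep2* the WT libraries (black) are the lowest.

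Among the regulators, the corepressor gene *yox1* fell from 243 and 206 normalised reads in WT to 53.3 and 38.4 (-2.29 ± 0.22, edgeR adjusted p = 3.88e-05). The other corepressor gene, *nrm1*, had 1335 and 1241 in WT and 1048 and 1088 in the *igo1*Δ-labelled libraries, a change of -0.28 ± 0.07 (edgeR adjusted p = 0.0106). Its groups did not overlap, but the call was lost with DESeq2 (adjusted p = 0.0839), with all 6 libraries in one fit (0.242) and without WT replicate 1 (0.172). The 3 cores before *nrm1* are as many as those before *yox1*, and *nrm1* overlaps *tad1* on the opposite strand over 1442 bases, a gene that had 183 to 231 reads in these 4 libraries. The subunit gene *cdc10* fell from 1569 and 1430 to 888 and 947 (-0.72 ± 0.08, edgeR adjusted p = 9.36e-05; 0.0531 with all 6 libraries in one fit). The coactivator gene *rep2* rose from 549 and 597 to 917 and 945 (0.69 ± 0.09, edgeR adjusted p = 0.000236), and this call was also lost with all 6 libraries in one fit (0.183).

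In all, 9 of the 10 genes were called lower and 1 higher. Of the 5931 genes tested in this comparison, 30.1% were called lower and 29.6% higher, 59.7% in all, so that a call alone says little here and the size of the change carries the description. The median log2 fold change was -2.54 over the 10 genes and -3.11 over the 6 targets, against -0.03 over all genes tested. Both libraries lay below both WT libraries for 9 of the 10 genes and for 42.4% of all genes, and above both for *rep2* and 39.9% of all genes. DESeq2 called 9 of the 10 and 51.4% of all genes. With all 6 libraries in one fit, 7 of the 10 genes were called, all of them lower, against 14.4% of all genes in either direction. Upper-quartile scaling moved the median of all genes to -0.14 and the share of higher calls from 49.6% to 39.2%.

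Other genes of the G1/S programme were examined in the same fit. Of 13 further known MBF targets 12 were called lower and none higher, with a median of -0.89, and 8 were called with all 6 libraries in one fit. The GATA factor gene *ams2*, which acts in histone transcription, changed by -3.31, the FHA-domain gene *tos4* by -3.23, the replication checkpoint mediator gene *mrc1* by -1.89 and the polymerase alpha gene *pol1* by -1.73. The exception was *suc22*, the small subunit of ribonucleotide reductase, at 0.07 (edgeR adjusted p = 0.490). The other 3 genes of the complex itself changed little: *res1* rose by 0.52, *res2* fell by 0.40 and *rep1*, the meiotic coactivator gene, fell by 0.44. All 3 calls were lost with all 6 libraries in one fit. Among 5 genes of the checkpoint pathway that acts on MBF, *cds1* (-0.55), *chk1* (-0.46) and *rad26* (-0.26) were called lower, and none of the 3 calls held in the fit of all 6 libraries. Of 4 genes for the Cdt2 ligase and its substrates, the replication inhibitor gene *spd1* was higher by 0.65 and *ddb1* lower by 0.40, and neither call held in that fit either.

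Genes of neighbouring cell cycle stages and other lists were examined in the same fit. Of all genes, 59.7% were called there in either direction, and 14.4% with all 6 libraries in one fit. Of 10 genes of the mitotic PBF wave 8 were called lower, with a median of -0.84, the most by -1.92 in *slp1*, the activator of the anaphase-promoting complex, and 5 were called in the fit of all 6 libraries. Histone genes were mixed, with 2 of 9 called higher and 4 lower and a median of 0.04; *hhf1* had the largest fall at -1.60. Of 8 genes induced by nitrogen starvation 4 were higher, up to 1.34 in the ammonium transporter gene *amt1*, and 3 lower, down to -2.18 in the peptide transporter gene *isp4*. The 6 M mating type markers all fell, by a median of -6.19, and 2 of the 4 P markers were lower (1 without either WT library or without *igo1*Δ-labelled replicate 1). Of 7 reference genes 4 were called higher and none lower, with a median of 0.37, led by the tubulin gene *atb2* at 1.08, and 2 were called without either WT library.

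**Figure D3:**
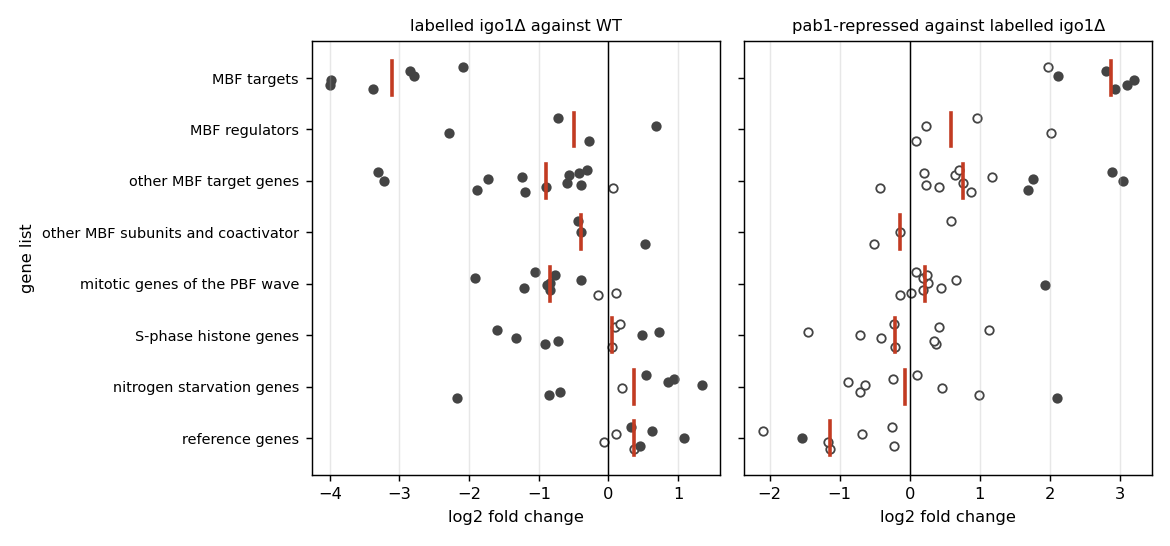
Log2 fold change (x axis) of each gene of 8 lists in the *igo1*Δ-labelled libraries against WT (left) and in the *pab1*-repressed libraries against the *igo1*Δ-labelled ones (right). Filled points passed an adjusted p of 0.05, open points did not, and red bars are list medians; for the 6 MBF targets the medians are -3.11 on the left and 2.86 on the right.

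The second comparison asks, as the strains are labelled, whether lowering the B55 subunit changes these genes in an *igo1* mutant. In the *pab1*-repressed libraries the replication genes *cdc18*, *cdt1*, *cdt2* and *cdc22* and the cyclin gene *cig2* stood above their level under the *igo1*Δ label, by 4.43- to 9.80-fold in mean normalised reads. These 5 genes were called by limma, all higher, while 2.91% of the 6046 genes tested were called higher, 6.12% lower and 9.03% in either direction. The median log2 fold change was 2.07 over the 10 genes and 2.86 over the 6 targets, against 0.00 over all genes tested. Both *pab1*-repressed libraries lay above both *igo1*Δ-labelled libraries for 8 of the 10 genes and for 32.9% of all genes. The fold changes in this comparison and the next are on the scale of log2(deposited normalised count + 1).

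For *cdc18*, the *pab1*-repressed libraries had 1061 and 2474 normalised reads, against 195 and 223 (log2 fold change 2.92 ± 0.44, limma adjusted p = 0.0295). In *cdt1* the values were 412 and 514 against 58.8 and 45.4 (3.10 ± 0.30, limma adjusted p = 0.0133). The gap was widest in *cdt2*, with 787 and 1398 against 109 and 114 (3.20 ± 0.33, limma adjusted p = 0.0156). In none of these 3 genes did the groups come near each other, although replicate 1 was the lower *pab1*-repressed library in each. The *cdc22* gene, with 8272 and 9251 against 1931 and 2029, had the smallest standard error of the 10 (2.12 ± 0.18, limma adjusted p = 0.00977). The *cig2* gene had 1203 and 3304 normalised reads against 275 and 284 (2.80 ± 0.50, limma adjusted p = 0.0411), and *pmc1*, which overlaps it, had 8945 and 11804 reads. In *mik1*, 167 and 359 stood against 56.6 and 65.1, and with a change of 1.97 (95% interval 0.79 to 3.14) the limma adjusted p of 0.0649 missed the threshold.

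Of the regulators, none was called. The *yox1* level was 144 and 249 normalised reads against 53.3 and 38.4, a difference of 2.01 (95% interval 0.93 to 3.10; limma adjusted p = 0.0540). The *cdc10* level was 1582 and 2072 against 888 and 947, a difference of 0.95 ± 0.21 (SE; limma adjusted p = 0.0613). For both genes the groups did not overlap. In *nrm1*, 1065 and 1245 normalised reads stood beside 1048 and 1088 (0.08, interval -0.40 to 0.57; limma adjusted p = 0.777), and in *rep2* 809 and 1533 beside 917 and 945 (0.23, interval -0.65 to 1.12; limma adjusted p = 0.656). These last 2 groups of values overlapped. DESeq2 (21.4% of all genes called) and edgeR with all 6 libraries in one fit (27.3%) each called 8 of the 10 genes, adding *mik1*, *yox1* and *cdc10*, while without *igo1*Δ-labelled replicate 1 or replicate 2 there were 3 calls (*cdc18*, *cdt1* and *cdt2*), and 2.15% or 1.94% of all genes were called. Without *pab1*-repressed replicate 1 there were 9 calls and without replicate 2 there were 8, but 64.3% and 53.9% of all genes were called in these fits, where the remaining library is assumed to vary like the other group.

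**Figure D4:**
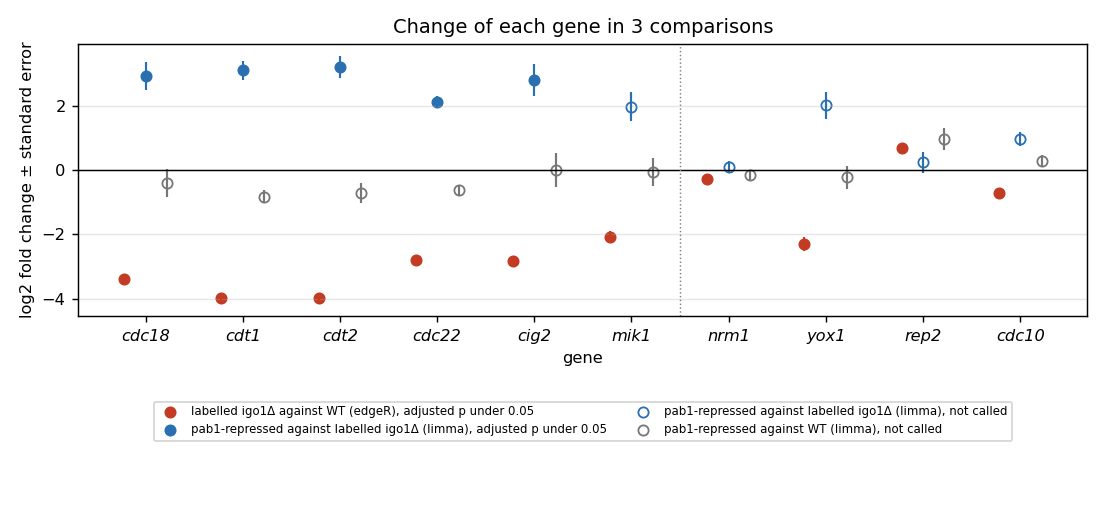
Log2 fold change with its standard error (y axis) of each gene in the 3 comparisons, with filled points for an adjusted p under 0.05. In the *igo1*Δ-labelled libraries against WT (red) all 10 points are filled and 9 lie below 0; in the *pab1*-repressed libraries against the *igo1*Δ-labelled ones (blue) 5 are filled and lie above 0; and against WT (grey) none is filled.

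Of the 13 further MBF targets 4 were called higher and none lower, with a median of 0.76. They were *tos4* (3.03), *ams2* (2.89), *pol1* (1.76) and *mrc1* (1.69), and DESeq2 called 7 of the 13. Their calls ran from 2 to 10 when single libraries were left out, with 2 without either *igo1*Δ-labelled library and 10 without either *pab1*-repressed library, and the shares of all genes called in those fits, given above, moved in the same way. None of *res1*, *res2* and *rep1* was called. In the checkpoint list the effector kinase gene *cds1* was called higher, by 1.01 (limma adjusted p = 0.0480). None of the 9 histone genes and 1 of the 10 PBF-wave genes were called, the last being *spo12* at 1.93. The 6 M mating type markers were all called higher, with a median of 5.97, and *map1*, the gene of a MADS-box factor for P-specific transcription, was called higher by 3.24. Of the reference genes *atb2* fell by 1.53 on the log2 scale with a list median of -1.13. Without either *igo1*Δ-labelled library the calls of *cds1*, *spo12* and *atb2* were lost. Without *pab1*-repressed replicate 1 or replicate 2, 6 of the 9 histone genes were called, near the 64.3% and 53.9% of all genes in those fits. Upper-quartile scaling moved the median of all genes to 0.19 and the share of higher calls from 32.2% to 46.3%, and it added *cdc10* to the genes called.

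The *pab1*-repressed replicates differed from each other more than those of the other groups. This held over all genes with reads in a group, with a chi-square per gene of 398 against 8.75 in WT and 37.3 in the *igo1*Δ-labelled libraries. The direction of the difference was not counted over all genes. Over the 10 genes the median absolute log2 difference between replicates was 0.81, against 0.11 in WT and 0.08 in the *igo1*Δ-labelled libraries. Replicate 2 was the higher in all 10, by a ratio from 1.12 in *cdc22* to 2.75 in *cig2*, with 2.33 in *cdc18* and 2.15 in *mik1*. In replicate 1 the 6 MBF targets stood well above their level in the *igo1*Δ-labelled libraries, at a sum of 11902 against 2625 and 2760. The part of either library in these values was not tested.

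The third comparison sets the *pab1*-repressed libraries against WT, where the strains differ by label in both genes. None of the 10 genes was called by limma, by edgeR, by DESeq2 (5.75% of all genes called) or by edgeR with all 6 libraries in one fit (2.04%). In limma 2 of the 10 had an unadjusted p under 0.05, as did 18.4% of the 6035 genes tested, of which 0.0331% were called. The means of the targets lay between 55.9% of WT in *cdt1* and 113% in *cig2*, while in the *igo1*Δ-labelled libraries they lay between 6.29% and 23.6% of WT. The differences were -0.83 (95% interval -1.39 to -0.27) in *cdt1*, -0.62 (-1.03 to -0.21) in *cdc22* and -0.72 (-1.60 to 0.15) in *cdt2*, and in these 3 genes both *pab1*-repressed libraries were below both WT libraries, as for 28.2% of all genes. For *cdc18* (-0.41, interval -1.64 to 0.83), *cig2* (0.01, -1.45 to 1.46) and *mik1* (-0.06, -1.27 to 1.15) the *pab1*-repressed libraries lay on both sides of WT. An interval of this width does not show that the groups are alike. Among the regulators the largest value was that of *rep2*, at 0.97 (-0.01 to 1.94), and both *pab1*-repressed libraries were above both WT libraries in *rep2* and *cdc10*, as for 27.8% of all genes. With *pab1*-repressed replicate 1 left out there were 8 calls, 5 of them higher, and with replicate 2 left out 9 calls, 8 of them lower. These fits take the spread from WT alone and called 69.9% and 59.4% of all genes, so the counts of calls say little about the 10 genes.

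Across the genome, the number of MCB cores before a gene went along with its change in the *igo1*Δ-labelled libraries. Without the 10 genes, 31.8% of 4493 coding genes with no core in 250 bases were called lower, 35.0% of 309 with 1 core, 42.6% of 115 with 2 and 52.4% of 42 with 3 or more. The share called higher ran the other way, from 29.8% with no core to 14.3% with 3 or more, where 22 genes were lower and 6 higher. In the window of 100 bases, 72.2% of 18 genes with 3 or more cores were lower (13 genes) and 5.56% higher (1 gene), with a median of -0.71. In 250 bases the medians were -0.04, -0.09, -0.16 and -0.39 in order of core number, so they stayed far above the -3.11 of the 6 targets. The largest falls among the 42 were those of *ams2* (-3.31), *rid1* (-3.30), *tos4* (-3.23) and the dUTPase gene *dut1* (-2.94). In *rid1* the *igo1*Δ-labelled libraries had 258 and 228 normalised reads against 2367 and 2387 in WT. Genes with 3 or more cores that rose included the cyclin gene *cig1* (0.61) and the ribosomal protein gene *rpl2501* (1.32). In the *pab1*-repressed libraries against the *igo1*Δ-labelled ones, 4 of 41 such genes were called higher (9.76%) and none lower, against 2.50% and 6.41% of genes with no core. Neighbouring divergent genes can share a window, so these genes are not independent of each other, and the trend was given no test. The genes named from these windows were chosen after their values were seen.

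**Figure D5:**
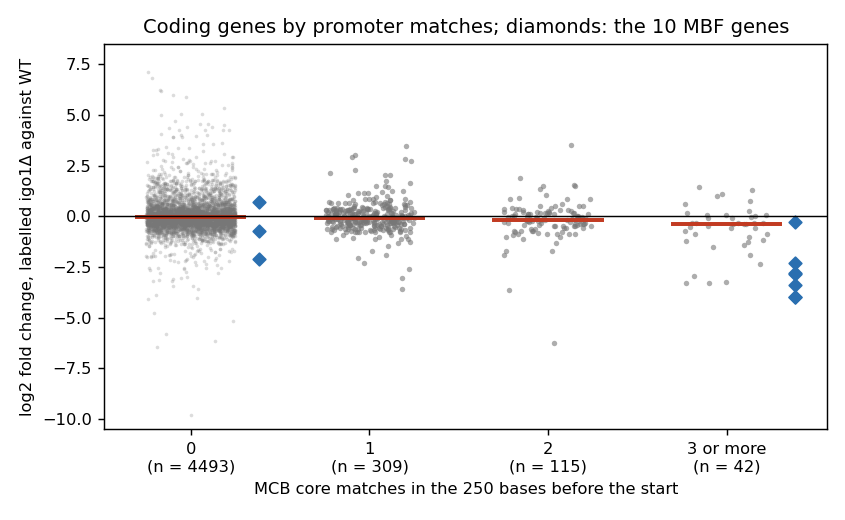
Log2 fold change in the *igo1*Δ-labelled libraries against WT (y axis) of coding genes grouped by the number of MCB cores in the 250 bases before their start (x axis), with grey points for genes, red bars for medians and blue diamonds for the 10 MBF genes. The medians go from -0.04 with no core to -0.39 with 3 or more, and 6 of the 7 diamonds in the last group lie at or below -2.29.

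The pattern of *cdc18* over the 6 libraries was set against those of 5443 other genes by the root mean square difference of log2 levels, each centred on its own mean. The nearest genes outside the 10 were *tos4* at 0.16, *spk1*, the MAP kinase gene of the pheromone pathway, at 0.22, *ams2* at 0.28, *ste4* at 0.34 and *rgs1* at 0.35. The *spk1* levels were 2999 and 3016 normalised reads in WT, 269 and 223 in the *igo1*Δ-labelled libraries, and 1514 and 2558 in the *pab1*-repressed ones. Among the 10 genes, *cig2* ranked 3 and *cdt2* ranked 4 of all genes, with *cdt1* at 9, *cdc22* at 14, *yox1* at 20 and *mik1* at 21. The *cdc10* gene ranked 346, *nrm1* 1714 and *rep2* 3675. These 6 points come from 3 groups and share library and scaling, so the measure is a description only.

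The study is concerned with transcripts rich in the lysine codon AAA. The share of AAA among lysine codons was 81.1% in *cdc18*, 76.3% in *cdt1*, 72.7% in *nrm1* and 71.4% in *cdc10*. It was 68.8% in *yox1*, 68.4% in *mik1*, 66.7% in *cig2* and 59.3% in *cdt2*, and lowest in *cdc22* (33.3%) and *rep2* (30.0%). The median was 68.6% over the 10 genes and 64.3% over 4952 coding genes. In the same order, the log2 fold changes in the *igo1*Δ-labelled libraries against WT were -3.38 in *cdc18* and -3.99 in *cdt1*. They were -0.28 in *nrm1*, -0.72 in *cdc10*, -2.29 in *yox1* and -2.09 in *mik1*. For *cig2* and *cdt2* they were -2.84 and -3.98, and for *cdc22* and *rep2* -2.79 and 0.69. These are RNA levels, while the study's proposal concerns translation, and a relation to the AAA share was not tested.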

How the data were processed

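RNAseq of total RNA from 6 libraries was analysed. Per the labels, the libraries were made with a stranded TruSeq total RNA kit, and the submitters' processing notes name FastQC 0.11.8, Trimmomatic 0.38, HISAT2 2.1.0, featureCounts of Subread 1.6.3, DESeq2 and the ASM294v2 build. Strand use in counting is not given in the sources used here, and the labels and the study's methods differ on the extraction reagent. The values the authors deposited are a normalised signal per gene, reads divided by a DESeq2 size factor, in 2 tables of 4 libraries each that were scaled separately. WT and the *igo1*Δ-labelled libraries lie in different tables.

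Each column was divided by its smallest positive value, which gave whole numbers (within 0.001) for 100% of values, taken as reads. The reads of the *pab1*-repressed libraries were identical in both tables. Over the genes with reads in each group, replicates differed by a chi-square per gene of 8.75 (WT), 37.3 (*igo1*Δ-labelled) and 398 (*pab1*-repressed). This was more than sampling noise, so all libraries were counted separately.

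The *igo1*Δ-labelled libraries were set against WT on recovered reads with the quasi-likelihood test of edgeR 4.0.16 (TMM scaling), keeping genes that averaged 10 reads or more. A standard error given with edgeR is the absolute log2 fold change divided by the square root of the F statistic, not an estimate from the fit. The other comparisons lay within a table and used limma 3.58.1 with a trend on log2(deposited value + 1), with the same minimum of 10. P-values were adjusted over all genes tested (Benjamini-Hochberg, threshold 0.05), and no permutation test of 2 against 2 libraries can reach the threshold. The steps were tested on simulated data with the same dispersion in both groups, so the wider spread of the *pab1*-repressed libraries was not covered. Alternatives were no filter, a mean of at least 50, pseudocounts of 0.1 and 10, upper-quartile scaling, DESeq2 1.42.0, edgeR or limma on recovered reads, one edgeR fit of all 6 libraries, a replicate block, single libraries left out, a promoter window of 100 bases, and Pearson correlation for likeness to *cdc18*.

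Gene models and sequence come from RefSeq's ASM294v3, to which 6852 of the 7001 identifiers matched (97.9%). The AAA share was counted in coding genes with at least 5 lysine codons. The 10 genes and all lists were chosen with earlier results of these data known, so they received no set test, and 1 list is not reported here. The genes named are the 10, up to 4 per list and comparison with called and larger changes first, *igo1*, *pab1*, *nmt1* and the 5 genes most like *cdc18* among those with a mean of at least 50 reads; overlapping genes, genes by promoter matches and some list examples were added after their values were seen. Software was R 4.3.3, Python 3.11.15, numpy 2.4.6, pandas 2.3.3 and matplotlib 3.10.9.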

Additional observations from a re-analysis of the deposited data

How the results depend on the processing

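Between the *igo1*Δ-labelled libraries and WT the 10 calls became 9 with DESeq2 and 7 with all 6 libraries in one fit, and the median log2 fold change of -2.54 became -2.65 with upper-quartile scaling. Between the *pab1*-repressed and *igo1*Δ-labelled libraries the 5 calls became 8 with DESeq2 and 8 with all 6 libraries in one fit. In the *pab1*-repressed libraries against WT, the log2 difference of *mik1*, -0.06, changed sign under upper-quartile scaling (0.0081), edgeR (0.033), DESeq2 (0.035) and all 6 libraries in one fit (0.039), far within its interval. The cause of these shifts was not tested.

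With single libraries left out, the calls ran from 9 to 10 in the first comparison, 3 to 9 in the second and 0 to 9 against WT in the *pab1*-repressed libraries. In the same fits the share of all genes called ran from 46.8% to 66.1%, from 1.94% to 64.3% and from 0.0497% to 69.9%, highest in the last 2 without *pab1*-repressed replicate 1. The medians ran from -2.64 to -2.46, from 1.84 to 2.45 and from -0.66 to 0.17. For the *pab1*-repressed libraries against WT, values changed sign in *cdc18* (-1.01 to 0.19), *cig2* (-0.71 to 0.73), *mik1* (-0.61 to 0.48) and *yox1* (-0.62 to 0.15). Against the *igo1*Δ-labelled libraries they did so in *nrm1* (-0.016 to 0.18) and *rep2* (-0.22 to 0.68).

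With the replicate number as a block, the calls were 10, 6 and 0, adding *mik1* in the second comparison. Over all genes, the block fit of the first comparison called 60.4%. In the second it called 170 of 6046 genes higher and 374 lower, against 176 and 370 without the block. For the *pab1*-repressed libraries against WT it called 0.348% of all genes, against 0.0331% without the block. Same-numbered libraries deviated together only weakly (correlations of 0.13, 0.02 and 0.12 in the 3 comparisons), so the numbers were not taken to pair the samples.

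Among the lists, all 6 libraries in one fit lowered the calls of the first comparison to 0 for the other MBF subunits, the checkpoint kinases and the Cdt2 ligase, to 1 for histones, P markers and reference genes, to 3 for nitrogen starvation genes and to 5 for the PBF wave. DESeq2 gave 1 call for P markers. In the second comparison DESeq2 and that fit gave 7 and 8 calls for the other MBF targets, 4 and 3 for reference genes, 1 and 1 for histones, 2 and 2 for the PBF wave and 2 and 2 for nitrogen starvation genes. Single libraries left out changed these list counts more widely, up to 6 of 9 histone genes and 10 of 13 other MBF targets without *pab1*-repressed replicate 1, where 64.3% of all genes were called. The fit of all 6 libraries gave 2 for the checkpoint kinases and 1 each for the other subunits and the Cdt2 ligase, while the block gave 0 for checkpoint kinases and 0, as did no filter, for nitrogen starvation genes. Against WT, DESeq2 gave 1 call each for histones, the PBF wave and reference genes and 2 for nitrogen starvation genes. The share of the 10 genes with 3 or more cores was 7 of 10 in both windows. By Pearson correlation the genes most like *cdc18* were *rum1*, *mpo1*, *apc2*, *mfm2* and SPBC19G7.04.

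The spread between the *pab1*-repressed libraries limits the comparisons that use them, and 2 libraries a group limit all 3. Counts of 33 to 56 reads make *mik1*, *yox1* and *cdt1* in the *igo1*Δ-labelled libraries the least precise values.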
